A study of Mus musculus with 6 samples.

Results

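Spn, Zbtb32, Bhlhe40, Bhlhe41, Ctla4, Ahnak, Cd300lf and Tbx21 are 8 genes tied to B-1 cells or to CD43, the surface sialoglycoprotein that Spn encodes and that B-1 cells, plasma cells, T cells and most myeloid cells carry. They were taken by symbol from the array's annotation, had 14 probe sets with a single symbol among them, and were 8 of 18193 genes measured. The arrays came from splenic B cells of 6 mice, all of which carried Bcl2 as a transgene driven by the Eµ enhancer, an enhancer active in lymphoid cells. In 3 of the mice both alleles of Crebbp, which encodes the histone acetyltransferase CBP, were flanked by recombination sites (CBPF/F, called floxed here), and in the other 3 both alleles were deleted (CBPΔ/Δ, called deleted). The labels used here give no Cre driver, age or sex, and no group without the Bcl2 transgene was analysed here. Cells that carry CD43 had been taken out on beads from thawed spleen cells, so the samples are what the beads left behind.

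B-1 cells are self-renewing B cells that arise early in life, make natural IgM and are most frequent in the body cavities, with a small population in the spleen. They carry CD43 and low levels of CD23, CD21 and IgD, whereas follicular (B-2) cells lack CD43 and carry CD23. The transcription factor BHLHE41, with its paralog BHLHE40, maintains B-1a cells, and ZBTB32, CTLA4, AHNAK and CD300LF are other genes described in B-1 or memory-like B cells. TBX21 encodes T-bet, which marks a CD11c-carrying subset of activated B cells and also T helper and NK cells. CBP is a coactivator of CREB, the factor that binds cAMP response elements.

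Levels below are log2 intensities, differences are deleted minus floxed on that scale, and a probe set compares only with itself across samples. The median of all probe set means was 4.29, which serves as a mark of dim signal. None of the 8 genes met limma's genome-wide threshold, a Benjamini-Hochberg adjusted p of 0.05, and 3 of them had an unadjusted p below 0.05. Of all genes 0.781% passed, and 14.8% had an unadjusted p below 0.05. In 2 members, Ahnak and Ctla4, all deleted samples lay above all floxed samples, and in 1, Cd300lf, they lay below, while 11.2% of all genes were separated upward, 10% downward and 21.2% in either direction. The median difference of the members was 0.24, against 0.014 over all genes. With so few members these shares only describe the genes.

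The upstream sequences of 2 members are shown, that of Ahnak because it had the largest difference and that of Bhlhe41 because it was the only member window with one of the motifs searched. They are the 250 bases before the gene's start, from RefSeq on GRCm38.p6, read 5′ to 3′ on the gene's strand, with motif matches in capitals. Ahnak lies on the plus strand (chr19:8989034-8989283) and Bhlhe41 on the minus strand (chr6:145865421-145865670).
Ahnak: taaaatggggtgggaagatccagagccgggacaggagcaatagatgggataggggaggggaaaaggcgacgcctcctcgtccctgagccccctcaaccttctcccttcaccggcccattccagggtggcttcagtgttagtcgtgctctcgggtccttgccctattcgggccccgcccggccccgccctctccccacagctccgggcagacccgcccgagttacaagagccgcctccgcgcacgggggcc
Bhlhe41: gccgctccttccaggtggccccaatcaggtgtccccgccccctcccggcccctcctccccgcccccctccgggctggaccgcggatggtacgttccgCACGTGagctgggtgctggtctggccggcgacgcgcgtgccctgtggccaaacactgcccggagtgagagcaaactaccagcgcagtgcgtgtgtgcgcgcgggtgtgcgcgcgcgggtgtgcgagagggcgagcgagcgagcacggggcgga
Of the 8 members 7 had a window in the table used. The cAMP response element TGACGTCA, read on both strands, was in none of the 7, against 1.55% of all 32851 windows of that length. The E-box CACGTG, to which BHLHE40 and BHLHE41 bind, was found once, in Bhlhe41, and 6.02% of all windows held it. The T-box sequence TCACACCT was in none of them, against 1.12% of all windows. These are matches of letters and no measure of binding.

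Spn, the gene of CD43 itself, had a modest signal in both groups, at percentile 61.1 of all probe set means. Its brighter probe set, 1422133_at, read 5.60, 5.10 and 5.33 in floxed samples 1, 2 and 3 and 4.99, 4.76 and 5.25 in deleted samples 1, 2 and 3. The floxed samples stood higher on average, but deleted sample 3 lay above floxed sample 2, so the groups overlapped. The difference was −0.34 ± 0.17 (SE, 95% interval −0.73 to 0.05, n = 3 each; limma adjusted p = 0.397). The other probe set, 1439034_at, had a smaller spread among floxed samples. It read 4.80, 4.92 and 4.86 in them and 4.69, 4.30 and 4.75 in the deleted samples. There all deleted samples lay below all floxed ones, with a difference of −0.28 ± 0.13 (SE, limma adjusted p = 0.413 over all probe sets). Both probe sets of Spn thus leaned the same way without passing. In bulk samples fewer cells that express a gene and less of its RNA per cell cannot be told apart.

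Among the genes of at least median signal, the 3 whose profile over the 6 samples lay closest to that of Spn were Tfrc, Mfsd5 and Srbd1. Each profile was centred on its own mean, and the root mean square difference from Spn was 0.055, 0.055 and 0.058 log2 units in that order, among 10594 genes compared. Tfrc, the transferrin receptor, had a difference of −0.38 between the groups, Mfsd5, a membrane transporter-like protein, one of −0.35, and Srbd1 one of −0.32.

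**Figure D1:**
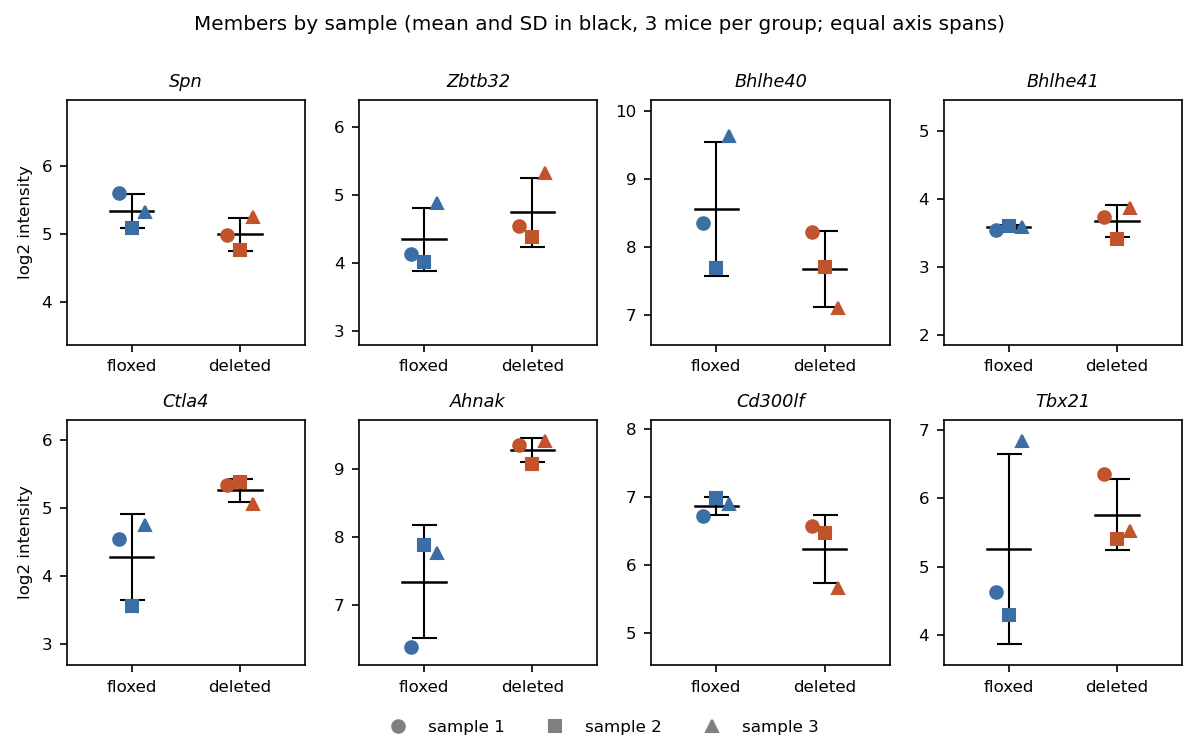
Log2 intensity of the representative probe set of each of the 8 genes in the 3 floxed (blue) and 3 deleted (orange) samples, with the group mean and SD in black and the same span on every axis. Ahnak and Ctla4 are higher and Cd300lf is lower in every deleted sample than in every floxed one, whereas Bhlhe40 and Tbx21 spread widely among the floxed samples, up to 9.63 and 6.85 in floxed sample 3.

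Bhlhe40, a basic helix-loop-helix repressor induced by activation in many immune cells, was among the brighter members, at percentile 89.4 of all probe set means, and varied widely among the floxed samples. It read 8.36, 7.70 and 9.63 in floxed samples and 8.22, 7.72 and 7.11 in deleted samples. Floxed sample 3 was the highest and deleted sample 3 the lowest, while the samples numbered 2 were nearly equal. The difference of −0.88 ± 0.49 (SE, 95% interval −2.02 to 0.25; limma adjusted p = 0.451) was smaller than the range of 1.93 among the floxed samples. Its paralog Bhlhe41 lay below the median of probe set means at both of its probe sets. Probe set 1421099_at read 3.55, 3.61 and 3.59 in floxed samples and 3.73, 3.41 and 3.87 in deleted samples. The groups overlapped, and the 95% interval of the difference of 0.09 ran from −0.21 to 0.39 (limma adjusted p = 0.805). At probe set 1457096_at the difference was 0.05, with floxed values from 3.23 to 3.98 and deleted values from 3.45 to 3.72. No difference in Bhlhe41 was found, though a signal this dim limits what could be seen.

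Zbtb32, a zinc finger repressor of the BTB family that restrains B cell recall responses and acts with Blimp-1, was also near the dim end. Its brighter probe set, 1432459_a_at, read 4.14, 4.02 and 4.88 in floxed samples and 4.54, 4.38 and 5.32 in deleted ones. The samples numbered 3 were the highest of each group, and the groups overlapped. The difference was 0.40 ± 0.30 (SE, 95% interval −0.31 to 1.11; limma adjusted p = 0.596). Its second probe set, 1447330_at, went the other way. It lay between 3.15 and 3.46 in floxed samples and between 2.79 and 3.18 in deleted samples, a difference of −0.27. The direction for Zbtb32 therefore depended on the probe set.

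Tbx21 had the widest spread of the members within the floxed group, an SD of 1.39. It read 4.63, 4.28 and 6.85 in floxed samples and 6.35, 5.40 and 5.52 in deleted samples. Floxed sample 3 was higher than every deleted sample, and the other floxed samples were lower than all of them. The difference of 0.50 ± 0.64 (SE, 95% interval −0.98 to 1.99; limma adjusted p = 0.771) was 1.30 without floxed sample 3 and 0.017 without floxed sample 2, neither past the threshold. The NK cell marker list was also highest in floxed sample 3, at a mean log2 level of 4.69 against 3.87 to 4.35 in the other samples. Its part in the Tbx21 values was not tested.

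Ctla4, the inhibitory receptor that competes with CD28 for CD80 and CD86, read 4.54, 3.56 and 4.75 in floxed samples and 5.34, 5.38 and 5.07 in deleted samples. Every deleted sample was above every floxed one, and floxed sample 2 stood apart at the low end. The difference was 0.98 ± 0.29 (SE, 95% interval 0.30 to 1.65), a 1.97-fold higher level in the deleted group, and did not pass over all genes (limma adjusted p = 0.181). Without floxed sample 2 it was 0.62. The floxed mean of 4.28 lay at the median of probe set means, so the size of the fold is uncertain. Only 1 probe set of Ctla4 carried a single symbol.

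Ahnak, a giant scaffold protein under the plasma membrane that binds the annexin 2 and S100A10 complex, had the largest difference of the members. Probe set 1452217_at read 6.39, 7.89 and 7.76 in floxed samples and 9.35, 9.08 and 9.41 in deleted samples. The deleted samples were close together, and the lowest of them was 9.08, above the highest floxed value of 7.89. The difference was 1.93 ± 0.37 (SE, 95% interval 1.07 to 2.80), a 3.82-fold higher level. It missed the threshold over all genes (limma adjusted p = 0.069), and 0.253% of all genes had a difference at least as large in either direction. Without floxed sample 1, the lowest, it was 1.46 (limma adjusted p = 0.055), and with other samples left out the adjusted p ran up to 0.205.

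The other probe sets of Ahnak were dim and disagreed in part. Probe set 1428057_a_at lay between 3.14 and 3.17 in floxed samples and between 3.60 and 4.10 in deleted samples, a difference of 0.63 (limma adjusted p = 0.12 over all probe sets). Probe set 1428058_at lay between 4.08 and 4.16 and between 4.34 and 4.60, a difference of 0.39 (limma adjusted p = 0.168). Neither passed, as 0.411% of all probe sets did; in both the groups were separated, as in 19.8% of all probe sets. At 1429866_at the groups overlapped with a difference of −0.08. When its 4 probe sets were averaged, Ahnak differed by 0.72 and passed (limma adjusted p = 0.039). It also passed with array weights, at 2.06 (limma adjusted p = 0.040), and in the other alternatives the adjusted p lay above the threshold.

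Cd300lf, an inhibitory receptor of the CD300 family that binds phospholipids, read 6.72, 6.98 and 6.90 in floxed samples and 6.57, 6.48 and 5.67 in deleted samples. Every deleted sample was below every floxed one, but by a small margin except in deleted sample 3. The difference was −0.63 ± 0.23 (SE, 95% interval −1.17 to −0.09; limma adjusted p = 0.265), a 1.54-fold lower level in the deleted group. Without deleted sample 3 it was −0.34. Cd300lf had 1 probe set with a single symbol.

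**Figure D2:**
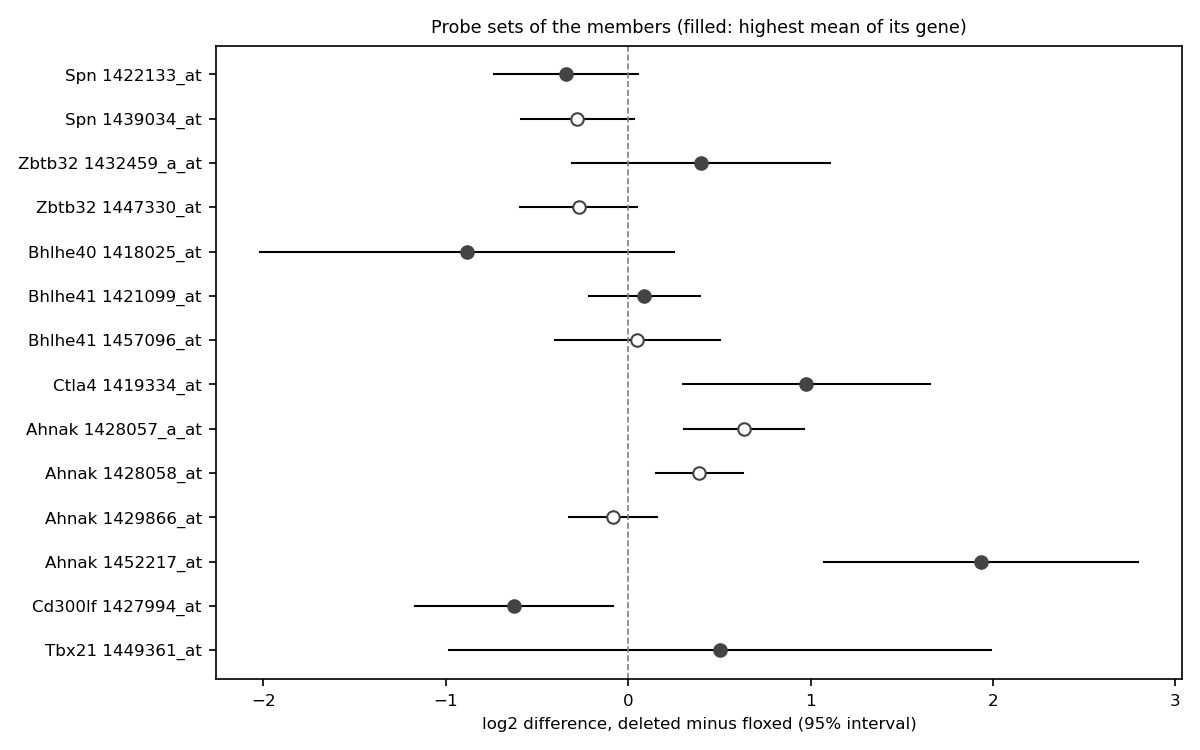
Log2 difference, deleted minus floxed, of each of the 14 single-symbol probe sets of the members, as points with 95% intervals from limma over all probe sets. Filled points are the brightest probe set of each gene. The interval of Ahnak 1452217_at lies from 1.07 to 2.80, those of both Spn probe sets include 0, and the 2 probe sets of Zbtb32 point in opposite directions.

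The members did not share a pattern over the samples. Deleted sample 3 held the highest value of 3 members (Zbtb32, Bhlhe41 and Ahnak) and the lowest of 2 (Bhlhe40 and Cd300lf). Floxed sample 2 held the lowest value of 3 members (Zbtb32, Ctla4 and Tbx21) and the highest of Cd300lf. Floxed sample 3 held the highest value of Bhlhe40 and Tbx21. The direction thus differed within the set, with 5 members higher and 3 lower on average in the deleted samples.

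Other genes described in B-1 cells were divided as well. Of 20 listed, 19 were measured and 0 met limma's genome-wide threshold in either direction. In this list 5 genes had an unadjusted p below 0.05 (26.3%, against 14.8% of all genes), 13 differences were positive and 6 negative, and the median was 0.08. Cd5, the surface glycoprotein that defines B-1a cells, was dim, between 3.16 and 3.45 in floxed samples and between 3.27 and 3.49 in deleted samples. The integrin Itgam, which peritoneal B-1 cells carry, ranged from 3.04 to 4.27 in floxed samples and from 3.25 to 3.81 in deleted samples. The groups overlapped in both genes.

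Genes at the top of that list by p pointed in opposite directions. Nfatc1, a calcium-dependent transcription factor needed for B-1a cells, read 9.61, 9.04 and 9.32 in floxed samples and 8.39, 8.40 and 8.56 in deleted ones. All deleted samples were lower, with a difference of −0.87 ± 0.15 (SE, limma adjusted p = 0.056). Pdcd1lg2, the PD-1 ligand PD-L2 found on B-1 cells, had a difference of −0.79 (limma adjusted p = 0.145). Anxa2, the annexin that binds AHNAK, went the other way. It read 5.96, 5.62 and 7.13 in floxed samples and 7.28, 7.46 and 7.72 in deleted samples, a difference of 1.25 ± 0.36 (SE, limma adjusted p = 0.167). Of its 3 probe sets 1 was lower in the deleted group.

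The partners of AHNAK and annexin 2 were mostly dim. Of 8 listed, 7 were measured, 0 passed limma's test in either direction, and the median difference was 0.09. In 2 the unadjusted p was below 0.05 (28.6%, against 14.8% of all genes). These were Anxa2 and S100a6, a calcium-binding protein of the S100 family. S100a6 read 6.40, 6.53 and 7.10 in floxed samples and 7.61, 7.30 and 9.26 in deleted ones, with deleted sample 3 far above the rest, and the difference was 1.38 ± 0.48 (SE, limma adjusted p = 0.241). S100a10, which forms the tetramer with annexin 2, had a difference of −0.31 with overlapping groups (limma adjusted p = 0.43).

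Genes that follicular cells express more than B-1 cells stood lower in most cases. Of 10 listed, 8 were measured and 0 met limma's genome-wide threshold. Here 7 had an unadjusted p below 0.05 (87.5%, against 14.8% of all genes), 6 differences were negative, and the median was −0.49. In 7 of the 8 the groups did not overlap, with 5 lower and 2 higher in the deleted samples, where 21.2% of all genes were separated. Fcer2a, the low-affinity IgE receptor CD23, read 10.78, 11.35 and 10.70 in floxed samples and 9.96, 10.01 and 9.76 in deleted samples. The difference was −1.03 ± 0.18 (SE, limma adjusted p = 0.057), close to the threshold. The homing receptor Cxcr5 and the interleukin-4 receptor Il4ra had differences of −0.57 and −0.41 (limma adjusted p = 0.099 each), with 1 of 3 probe sets of Il4ra higher. Cr2, the complement receptor CD21, which B-1 cells carry at low levels, had a difference of −0.75 (limma adjusted p = 0.164), chosen here after its values were seen. Klf2 and Cd55 went the other way with separated groups, by 0.68 and 0.50 (limma adjusted p = 0.16 and 0.221). They too were named after their values were seen.

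The genes that bind CD43 or build its sugars showed little. Of 11 measured, 0 passed limma's test in either direction, and the median difference was 0.10. An unadjusted p below 0.05 was found in 1 (9.09%, against 14.8% of all genes). C1galt1, the enzyme that makes the core 1 O-glycan, read 8.04, 8.11 and 8.18 in floxed samples and 7.80, 7.78 and 7.42 in deleted samples. All deleted samples were lower, with a difference of −0.44 ± 0.12 (SE, limma adjusted p = 0.161). Its chaperone C1galt1c1 had a difference of 0.25, with 1 of its 2 probe sets lower, and the adhesion molecule Icam1 one of 0.29, neither past the test.

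Among 9 partners of CTLA4 and CD28, 0 passed limma's test in either direction, and the median was 0.06. The unadjusted p was below 0.05 in 1 (11.1%, against 14.8% of all genes). That gene was Cd28, the costimulatory receptor that shares its ligands with CTLA4. It read 4.02, 2.87 and 3.53 in floxed samples and 4.13, 5.09 and 5.65 in deleted samples, a difference of 1.48 ± 0.42 (SE, limma adjusted p = 0.164). As with Ctla4, floxed sample 2 was the lowest and all deleted samples were higher than all floxed ones. The ligand Cd80 had a difference of 0.68 (limma adjusted p = 0.43) and the costimulator Icos one of 0.23 (limma adjusted p = 0.44), both with overlapping groups. For Cd80 1 of 4 probe sets was lower. Foxp3, the factor of regulatory T cells, which carry CTLA4, was dim and overlapped between the groups, from 3.03 to 3.20 in floxed and from 3.13 to 3.26 in deleted samples; it was named after its values were seen.

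Of 10 measured genes linked to T-bet 0 met limma's genome-wide threshold, and the median difference was 0.08. An unadjusted p below 0.05 was found in 2 (20%, against 14.8% of all genes). Ifngr1, a chain of the interferon-gamma receptor, read 8.44, 8.48 and 8.61 in floxed samples and 7.94, 8.11 and 8.04 in deleted samples. It was lower in all of the latter by −0.48 ± 0.09 on average (SE, limma adjusted p = 0.072). Stat4, which carries the interleukin-12 signal, had a difference of −1.26 ± 0.33 (SE, limma adjusted p = 0.148), with separated groups. Ifng, a target of T-bet, was dim, with a difference of 0.41 (limma adjusted p = 0.387).

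Among 5 measured relatives of Cd300lf in the CD300 family, 0 passed limma's test, and the median was 0.22. In 1 the unadjusted p was below 0.05 (20%, against 14.8% of all genes). Cd300c2 had a difference of 0.36, Cd300a one of 0.81 and Cd300lg one of −0.28 (limma adjusted p = 0.273, 0.444 and 0.459), and the groups overlapped in each. Of 10 clock genes, which BHLHE40 and BHLHE41 repress or work beside, 0 passed limma's test in either direction, and the median was −0.09. The unadjusted p was below 0.05 in 2 (20%, against 14.8% of all genes). Arntl, which encodes the clock activator BMAL1, read 7.21, 7.00 and 7.09 in floxed samples and 6.59, 6.63 and 6.35 in deleted ones, a difference of −0.58 ± 0.11 (SE, limma adjusted p = 0.072). The period genes Per1 and Per2 had differences of −0.80 and −0.37 (limma adjusted p = 0.235 and 0.397), with overlapping groups.

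**Figure D3:**
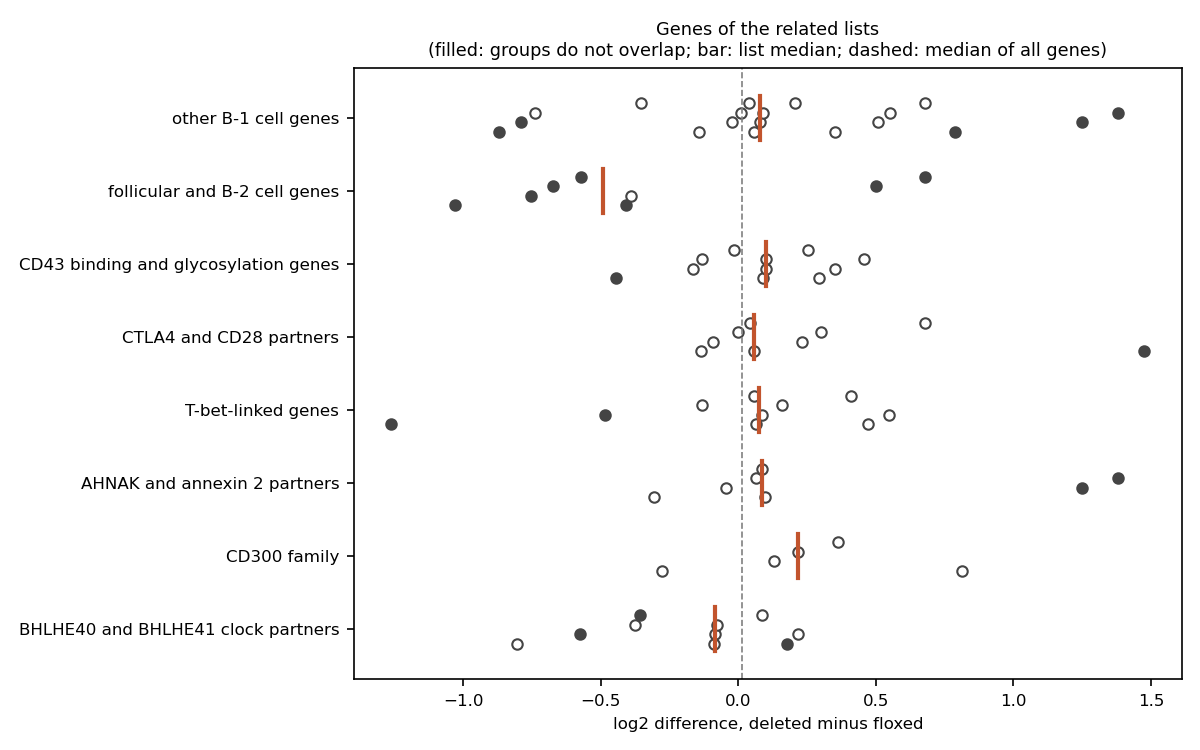
Log2 difference, deleted minus floxed, of every measured gene of 8 lists related to the members; filled points are genes whose groups do not overlap, the orange bar is the list's median and the dashed line the median of all genes, 0.014. The follicular and B-2 list lies furthest from that line, at −0.49, and genes of the other B-1 list lie on both sides, from −0.87 to 1.38.

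Crebbp, the deleted gene, had 4 probe sets, and at each of them every deleted sample lay below every floxed one. Their differences were −0.50, −0.53, −0.79 and −0.97, of which −0.79 passed (limma adjusted p = 0.033 over all probe sets) and the others had adjusted p-values from 0.081 to 0.104. Ms4a1, which encodes CD20, and the 6 other measured B cell markers were bright, and the list's mean log2 level ran from 10.70 to 10.84 in floxed and from 10.40 to 10.56 in deleted samples. Of these 7 markers Cd79a, a chain of the B cell receptor, passed, at −1.11 (limma adjusted p = 0.0093). Their differences were negative in 6 and positive in 1, with a median of −0.18. The groups were separated downward in 3 (42.9%, against 10% of all genes). Xist, which female cells express, was near 12 in floxed samples 2 and 3 and deleted sample 2 (11.84 to 12.21) and dim in the other 3 (4.45 to 4.55), so the sexes were unequal between the groups. With the Xist level as a covariate 37 genes passed in place of 142, 0 members were among them, and Ahnak differed by 2.10 (limma adjusted p = 0.099).

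Several cells that the CD43 beads should remove also express these members, and their markers were read in the same samples. Of 9 plasma cell markers 1 rose, Jchain, by 1.65 (limma adjusted p = 0.011). All 9 differences were positive with a median of 1.14, and 7 had an unadjusted p below 0.05 (77.8%, against 14.8% of all genes). In 7 every deleted sample was above every floxed one, where 11.2% of all genes were separated upward. The summed intensity of the list was 6038 to 6900 in floxed and 12100 to 18830 in deleted samples. The summed intensity of 13 monocyte and macrophage markers was 495.2 to 1643 in floxed and 1499 to 3554 in deleted samples. Of these 0 passed limma's test and 8 had an unadjusted p below 0.05 (61.5%, against 14.8% of all genes). Their median difference was 1.48, 12 differences were positive, and 4 markers were separated upward (30.8%, against 11.2% of all genes). The complement genes C1qb, C1qa and C1qc had differences of 2.09, 1.97 and 2.11 (limma adjusted p = 0.068, 0.145 and 0.152). These markers stood higher beside Ahnak and Ctla4. Spn, which plasma cells and most myeloid cells carry, was lower on average at both probe sets (−0.34 and −0.28), and so was Cd300lf (−0.63). The part of these cells in the members' differences was not tested.

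T cell markers bear on Ctla4, Tbx21 and Spn, which T cells express. Of 12 measured, 0 met limma's genome-wide threshold, and the median difference was 0.09. An unadjusted p below 0.05 was found in 1, Cd28 (8.33%, against 14.8% of all genes). The summed intensity was 1098 to 1332 in floxed and 1203 to 1241 in deleted samples. It was weighted to Cd2, the brightest of the list (9.55 to 10.08 in floxed and 9.70 to 9.82 in deleted samples). The list's mean log2 level was 5.23, 4.80 and 5.31 in floxed and 5.25, 5.39 and 5.34 in deleted samples. Floxed sample 2, the lowest for Ctla4 and Cd28, was thus lowest by this mean and highest by the sum. The part of T cells in the Ctla4 difference was not tested. Cd3e, a chain of the T cell receptor complex, had a difference of −0.05 (limma adjusted p = 0.89), and Cd3g one of 0.50 (limma adjusted p = 0.423). Cd3d had one of 0.50 and Thy1 one of 0.42 (limma adjusted p = 0.386 and 0.352). Of the 12 differences 7 were positive and 5 negative. The array reports no 0, so no marker can be called absent.

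NK cell markers, 8 in all, summed to 131.4 to 270.4 in floxed and 152.2 to 202 in deleted samples, with a median difference of −0.06. In the same order, the neutrophil list summed to 131.2 to 495.2 and 119 to 670.3, the dendritic list to 203 to 496.5 and 323.6 to 442.5, the erythroid list to 380.3 to 504.8 and 311.3 to 523.5, and the megakaryocyte and platelet list to 206.6 to 281 and 174.6 to 233.4. The erythroid sum was weighted to Tfrc, the brightest of its list, at 8.40 to 8.83 in floxed and 8.07 to 8.52 in deleted samples. In these 5 lists 0 members met limma's genome-wide threshold. In each, 0 to 1 had an unadjusted p below 0.05 (0% to 16.7%, against 14.8% of all genes).

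**Figure D4:**
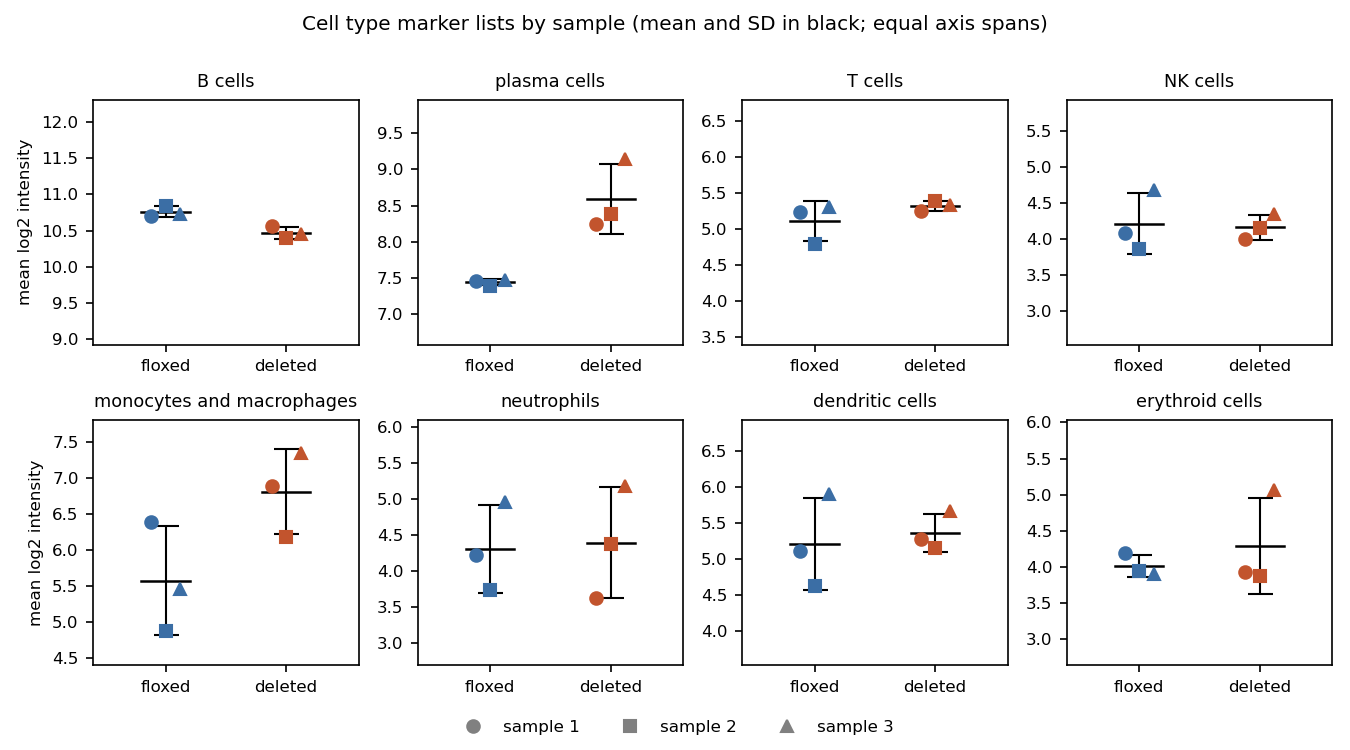
Mean log2 intensity of the measured markers of 8 cell types in each floxed (blue) and deleted (orange) sample, with the group mean and SD in black and equal axis spans. The plasma cell list is higher in every deleted sample (8.25 to 9.15) than in the floxed ones (7.39 to 7.47). The macrophage list overlaps slightly, and the NK and dendritic lists are highest in floxed sample 3.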

How the data were processed

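The authors deposited intensities, 1 for each probe set on each array, made with RMA per the submitters' processing notes (background correction, quantile normalization and probe set summary), with no version in the sources used here. The deposited intensities lie on a linear scale (2.96 to 17022) and were log2-transformed here and not normalized again. The number of arrays limits the precision, since arrays carry no read depth.

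Of 45101 probe sets 34945 had 1 gene symbol in the platform's annotation. Each of 18193 genes was represented by its probe set with the highest mean over the 6 samples, without a filter on dim signal. The test between the groups of 3 mice used limma 3.58.1 under R 4.3.3 (lmFit, eBayes, two-sided), adjusting p-values by Benjamini-Hochberg over all genes, or over all 45037 probe sets where stated. An exact permutation of 3 against 3 cannot give a p under 0.1 and was not used. The procedure was tested on simulated data with known changes, drawn independently for each gene and without a sex difference. That test does not cover correlated genes or unequal sexes. The members, gene lists and tests were chosen with earlier results of these data known.

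Named genes were the members, the 3 genes of each list with the smallest p, all list genes past the threshold, and the 3 nearest profiles to Spn; of the marker lists only those that bear on a member are named. Cd5, Itgam, Cr2, Klf2, Cd55, Foxp3, Cd2, Cd3e, Cd3g and Ms4a1 were named outside this rule, after their values were seen. So were Ptpn22, Plscr1, Cd9 and the erythroid markers other than Tfrc. Promoter windows came from RefSeq (GRCm38.p6). Figures were drawn with matplotlib 3.10.9.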

Additional observations from a re-analysis of the deposited data

How the results depend on the processing

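The 18 alternatives were chosen with earlier results known. The sign of 7 members held in each of them; the exception was Bhlhe41, whose difference was −0.011 without deleted sample 3. Over all alternatives Ahnak was the member that passed, with the mean of its probe sets (0.72) and with array weights (2.06), so that 1 member was called in each of these. Leaving out each sample in turn gave differences from −0.47 to −0.21 for Spn, 0.11 to 0.67 for Zbtb32, −1.31 to −0.35 for Bhlhe40, −0.011 to 0.22 for Bhlhe41, 0.62 to 1.21 for Ctla4, 1.46 to 2.20 for Ahnak, −0.79 to −0.34 for Cd300lf and 0.017 to 1.30 for Tbx21. It called 0 members each time.

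Genes called by limma over all genes numbered 142 (99 higher, 43 lower). They numbered 291 (172 higher, 119 lower) with array weights and 37 (27 and 10) with the Xist level as a covariate, and 63 were higher with log2(value + 16). Leaving out a sample gave 0 to 226 calls, 0 to 172 of them higher and 0 to 65 lower. The count of 0 came without floxed sample 1, where 1990 genes had an unadjusted p below 0.05; it was 16, 45 and 62 without deleted samples 1, 2 and 3 and 226 without floxed sample 3. The cause of these changes was not tested.

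Genes of the 8 related lists passed in some alternatives: 2 with a mean-variance trend and 2 with robust eBayes (Nfatc1 and Fcer2a), 4 with array weights (these, Ifngr1 and Arntl), and 0 to 3 with a sample left out, among them Cd80 and Anxa2 without floxed sample 3. The replicate block called 126 genes over all, 1 of them in these lists (Fcer2a), and 0 members; Ahnak differed by 1.93 with the block (limma adjusted p = 0.069). For samples with the same number the correlations of their deviations were 0.033, 0.104 and 0.0059. For samples with different numbers they ran from −0.117 to 0.079. Such values cannot show whether samples with the same number were paired.

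The CD43 list's median of 0.10 was 0.047 with the mean of probe sets, −0.015 with the most variable probe set, and 0.058 with array weights and with the Xist covariate. With genes of at least median signal alone the medians were 1.25 for the AHNAK list, 0.59 for the CD300 list and −0.22 for the clock list, from fewer genes. With a sample left out, medians ran from −0.00052 to 0.12 for the CD43 list and from −0.64 to −0.41 for the follicular list. Signal near the background limits Bhlhe41, Zbtb32 and Ctla4.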

Other observations

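Some genes of the B-1 list varied more among the floxed mice than between the groups (they are named after their values were seen). Ptpn22, a phosphatase that damps antigen receptor signalling, read 11.15, 8.48 and 9.68 in floxed samples 1, 2 and 3 and 8.57, 9.47 and 9.05 in deleted samples 1, 2 and 3. The phospholipid scramblase Plscr1 read 6.46, 4.98 and 7.57 in floxed samples and 6.98, 6.89 and 6.79 in deleted ones. Neither passed limma's test over all genes (adjusted p = 0.627 and 0.705).

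In deleted sample 3, 2 of the 6 measured erythroid markers stood far above the other samples. Slc4a1, the red cell anion exchanger, read 6.22 there and 2.51 to 3.30 in the other samples, and Alas2, the first enzyme of erythroid haem synthesis, read 5.66 there and 3.14 to 3.42 elsewhere. Klf1 was also highest there, at 3.79 against 3.22 to 3.44 in the other samples. Hba-a1, Epb42 and Tfrc were not highest in that sample, Epb42 by a narrow margin. Cd9, a tetraspanin of B-1 and marginal zone cells, was highest in the same sample, at 8.67 against 7.30 to 8.03 in the others.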
